A study of Mus musculus with 2 samples.

Results

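Bidirectional coding promoters are the short stretches of DNA from which a pair of protein-coding genes is read in opposite directions. Pairs were taken from the GENCODE M21 annotation where a minus-strand and a plus-strand coding gene pointed away from each other, their bodies did not overlap and their starts lay 1 kb or less apart. The 21938 coding genes gave 754 such pairs, which held 1487 genes (6.78% of all coding genes), 21 of them in more than one pair. A region counted for a pair when it was found in both replicates, by an overlap of at least 1 bp, and touched the interval between the starts or 200 bp on either side. Of the 84380 regions found in both replicates, 698 (0.827%) met this rule. The rule used gene positions and overlap only, so signal, width and summit place had no part in it.

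The regions came from ATAC-seq, in which a transposase cuts DNA that is not wrapped tightly in chromatin, and the material was primary T-helper 1 cells from the mouse strain C57BL/6NJ. These interferon-gamma producers belong to the CD4 lineage, and the labels point to a differentiation protocol for CD4 T cells. There was 1 group with 2 biological replicates, each its own biosample under a single donor identifier, with sex not collected and age unknown, and with no genotype, treatment or second condition. The replicates may therefore come from the same donor, and their difference may be mostly technical. The lists held 98786 regions in replicate 1 and 91403 in replicate 2 on the autosomes and sex chromosomes, and read totals are unknown. Of 7 T cell and T-helper 1 marker genes, 7 had a shared region at their start, against 0 of 4 B cell, 1 of 4 myeloid (Cd68) and 0 of 3 hepatocyte markers. With 1 group no test between conditions exists. Promoters are not replicates of one another, so classes are compared by counts and medians in each replicate.

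A promoter of this kind works as a shared platform. RNA polymerase II starts at both edges of a nucleosome-poor stretch and moves outwards, and the general factors that bind there serve both genes. Such promoters are usually rich in CpG dinucleotides and poor in TATA boxes, and they are known to serve many housekeeping genes, among them genes of DNA repair and of mitochondrial function. The comparison set was one-way coding promoters: 19174 coding genes outside the pairs with no other coding start within 1 kb, scored by a region touching the start or 200 bp on either side.

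The intervals of 7 pairs are shown because the values below return to them. They run from the first base of the minus-strand gene to the first base of the plus-strand gene, 5′ to 3′ on the plus strand of GRCm38 (mm10). Capitals mark matches to any of 12 motifs, spelled out further on, read on either strand, so that CCAAT also appears as ATTGG and GGGCGG as CCGCCC. Zcchc17/Snrnp40 was among 3 pairs tied for the highest mean rank of signal, and Recql/Golt1b and Osgep/Apex1 hold members of the DNA repair list with several matches. Brca1/Nbr1 and Psmb1/Tbp are textbook pairs, and Rnf151/Rps2 and Col4a4/Col4a3 had no shared region.
Zcchc17/Snrnp40, chr4:130359943-130360132: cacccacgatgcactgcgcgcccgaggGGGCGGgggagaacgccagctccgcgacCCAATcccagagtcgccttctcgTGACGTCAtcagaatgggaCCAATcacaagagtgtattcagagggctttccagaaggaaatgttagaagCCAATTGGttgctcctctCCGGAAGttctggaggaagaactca
Recql/Golt1b, chr6:142387087-142387221: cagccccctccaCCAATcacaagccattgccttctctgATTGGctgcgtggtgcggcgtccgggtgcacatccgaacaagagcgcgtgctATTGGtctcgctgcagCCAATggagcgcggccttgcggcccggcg
Osgep/Apex1, chr14:50924893-50924968: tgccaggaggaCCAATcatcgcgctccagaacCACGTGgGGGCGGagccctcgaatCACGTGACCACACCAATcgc
Brca1/Nbr1, chr11:101551955-101552149: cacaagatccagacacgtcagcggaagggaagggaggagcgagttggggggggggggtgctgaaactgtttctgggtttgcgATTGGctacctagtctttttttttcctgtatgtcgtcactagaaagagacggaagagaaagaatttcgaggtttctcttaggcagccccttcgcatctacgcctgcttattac
Psmb1/Tbp, chr17:15499751-15499888: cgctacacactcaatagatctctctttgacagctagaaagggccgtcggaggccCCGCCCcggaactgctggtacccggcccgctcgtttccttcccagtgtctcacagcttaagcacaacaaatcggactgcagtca
Rnf151/Rps2, chr17:24718063-24718116: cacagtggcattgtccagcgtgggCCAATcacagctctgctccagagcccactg
Col4a4/Col4a3, chr1:82586849-82586921: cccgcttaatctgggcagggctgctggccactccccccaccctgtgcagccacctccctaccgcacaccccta
The Zcchc17/Snrnp40 interval held 4 CCAAT matches, 1 CRE, 1 ETS and 1 SP/KLF match in 190 bases. The Recql/Golt1b interval held 4 CCAAT matches in 135 bases, and that of Osgep/Apex1 held matches to 4 of the motifs in 76 bases. The Rnf151/Rps2 interval also held a CCAAT match, and the Col4a4/Col4a3 interval held none of the 12 motifs.

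Nearly every bidirectional pair was open. A shared region was present at 717 of 754 pairs (95.1%, exact binomial 95% interval 93.3 to 96.5%), against 10229 of 19174 one-way promoters (53.3%, 52.6 to 54.1%) and 12724 of all 21938 coding starts (58%). These intervals, like all binomial intervals here, cover counting error only. A pair has a longer window and can be open through either of its starts. With one-way windows extended upstream by the median gap, 53.56% of one-way promoters were open. Of the open pairs, 694 (96.8%) had a region that reached over both starts, 21 had a region over one start only, and 2, Pinlyp/Xrcc1 and Nr2e1/Ostm1, had a region in the flank that covered neither start. Of the 717, 42 shared their region with a neighbouring pair, so that 696 distinct regions stood for them. Sirt1/Dnajc12 and Pecam1/Milr1, with gaps of 739 and 598 bp, were the 2 pairs with 2 shared regions. These genes encode a deacetylase (Sirt1) and an adhesion molecule of endothelium and blood cells (Pecam1), and they were named after their values were seen.

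CpG content moved with openness in both classes. The median ratio of observed to expected CpG in 250 bp to either side of the middle of the window was 0.833 at pairs and 0.510 at one-way promoters, and 54.5% of pairs fell in the highest quartile of the ratio over all promoters of both classes. Within the lowest quartile 5 of 18 pairs were open (27.8%, 9.69 to 53.5%), against 8.02% of 4964 one-way promoters. In the second quartile 45 of 58 pairs were open (77.6%), against 32.4% of one-way promoters. In the third quartile the shares were 97.0% of 267 pairs and 83.5% of 4715 one-way promoters. In the highest quartile they were 99.3% of 411 pairs and 94.1% of 4571 one-way promoters. The pairs thus had the higher share in each quartile, and the gap between classes was 5.20 percentage points in the highest quartile against 41.7 over all promoters. Openness hardly varied with the distance between the starts: it was 96.8% for gaps up to 100 bp, 94.2% above that and up to 200 bp, 93.0% up to 300 bp, 97.0% up to 500 bp and 91.4% up to 1000 bp, with overlapping binomial intervals.

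**Figure D1:**
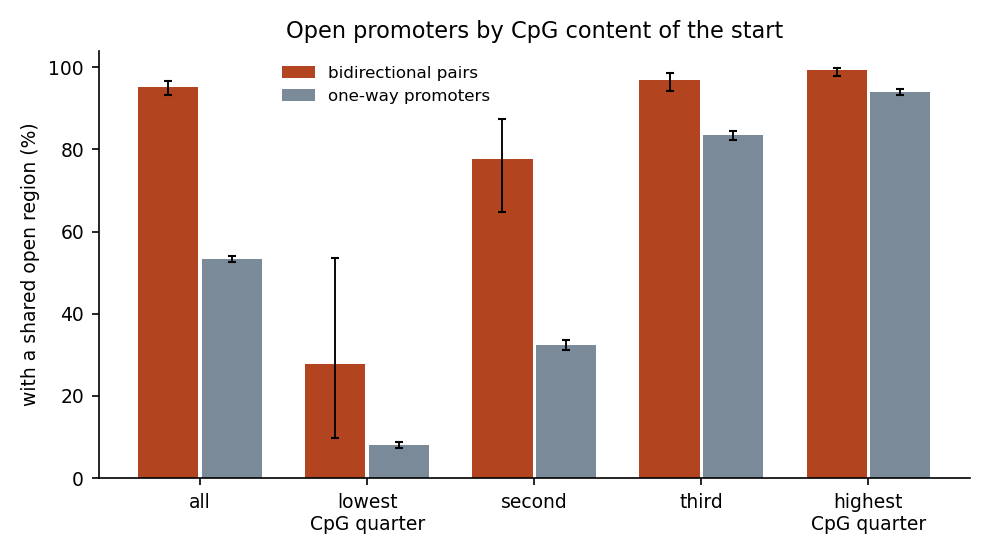
Share of promoters with a region found in both replicates (y axis, percent) for bidirectional pairs and one-way promoters, over all promoters and by quartile of the CpG observed-to-expected ratio (x axis). Bars show the share and lines the exact binomial 95% interval. The pairs stand at 95.1% against 53.3% over all promoters, and the classes lie closest in the highest CpG quartile, at 99.3% and 94.1%.

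A noncoding start can make a one-way coding promoter divergent too. Of 848 one-way promoters with a noncoding start on the opposite strand within 1 kb upstream, 684 were open (80.7%), between the pairs and the 17543 one-way promoters with no opposite start of any kind (50.8%). The median signal of those 684 was 11.6 in each replicate, also between the pairs and all one-way promoters.

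Open pairs had stronger regions than open one-way promoters. The signal was the fold over background at the summit, as the authors' peak caller gave it. Its median was 12.9 in replicate 1 and 12.6 in replicate 2 at pairs, against 10.9 and 10.7 at one-way promoters. The ratio of medians was 1.19 and 1.18. The gap between classes was larger than that between the replicates of either class. Over all shared regions, most of them away from promoters, the medians were 6.92 and 6.72. The classes overlapped widely: 71.1% of pairs in replicate 1 and 70.7% in replicate 2 stood above the one-way median.

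The difference was widest at the low end of the distribution and closed at the very top. The 5th percentile of signal was 6.96 and 6.74 at pairs, against 3.76 and 3.69 at one-way promoters, while the 95th percentile was 17.0 and 16.6 at pairs, against 17.0 and 16.6 at one-way promoters. In replicate 1, 1.67% of pairs and 10.6% of one-way promoters had a signal under 5. Signals above 15 were found at 24.7% and 19.1% of pairs, against 16.3% and 13.5% of one-way promoters, so the upper part differed too. The deposited −log10 q, which also grows with the number of fragments, had medians of 341 and 288 at pairs and 200 and 168 at one-way promoters, ratios of 1.70 and 1.72. In the highest CpG quartile the ratio of medians fell to 1.11 in each replicate for signal and to 1.35 and 1.36 for −log10 q. Among promoters poorer in CpG, the 45 open pairs of the second quartile had median signals of 11.8 and 11.4, against 8.34 and 8.10 at one-way promoters.

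**Figure D2:**
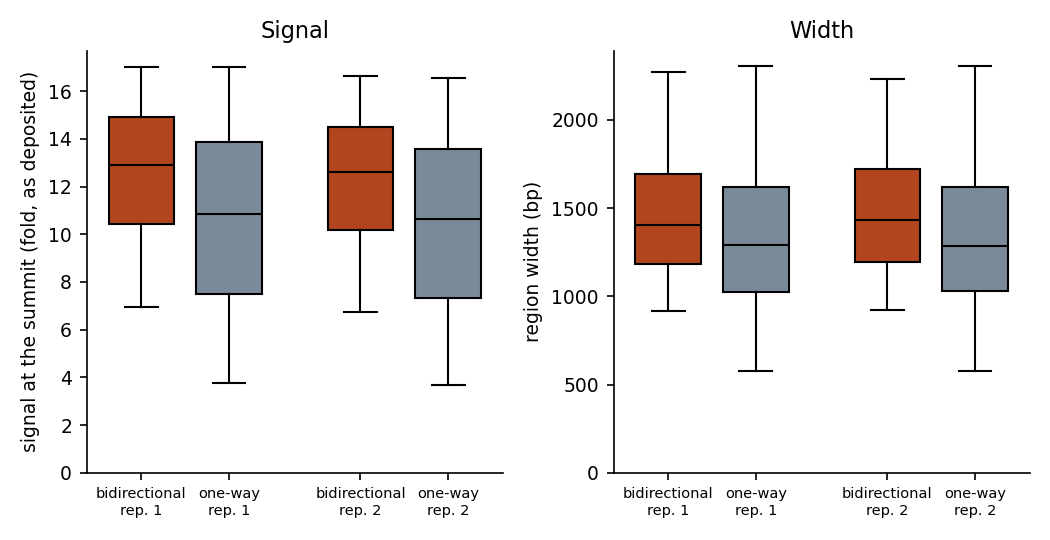
Signal at the summit (left, fold as deposited) and region width (right, bp) for open bidirectional pairs and open one-way promoters in each replicate. Boxes span the quartiles around the median and whiskers the 5th to 95th percentile. The lower whisker of signal ends at 6.96 and 6.74 at pairs and at 3.76 and 3.69 at one-way promoters, while the upper whiskers end alike.

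Regions at pairs were also somewhat wider than those at one-way promoters as a whole, but not than those with a divergent noncoding start. Median widths were 1404 bp in replicate 1 and 1430 bp in replicate 2 at pairs, against 1290 and 1287 bp at one-way promoters, ratios of 1.09 and 1.11. All shared regions had medians of 668 and 665 bp. In the highest CpG quartile the widths were 1471 and 1483 bp at pairs, against 1417 and 1426 bp at one-way promoters, a ratio of 1.04 in each replicate. One-way promoters with a divergent noncoding start upstream had medians of 1410 and 1427 bp, like the pairs. In the highest CpG quartile their medians were 1508 and 1509 bp, above those of pairs. Width did not simply follow the gap: the medians in replicate 1 were 1383, 1384, 1455 and 1401 bp in the 4 gap classes up to 500 bp, and 1682 bp in pairs with starts more than 500 bp apart.

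How far the regions reached past the starts also differed. The sides of a pair follow chromosome strand, which is unrelated to the genes, while those of a one-way promoter follow its gene. A like reach on both sides of the pairs therefore does not show that single regions were symmetric. At pairs the region reached a median of 587 and 595 bp into the minus-strand gene and 611 and 618 bp into the plus-strand gene. At one-way promoters it reached 785 bp into the gene in each replicate but only 462 and 461 bp upstream of the start. One-way promoters with a divergent noncoding start had medians of 771 and 762 bp into the gene and 591 and 596 bp upstream.

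**Figure D3:**
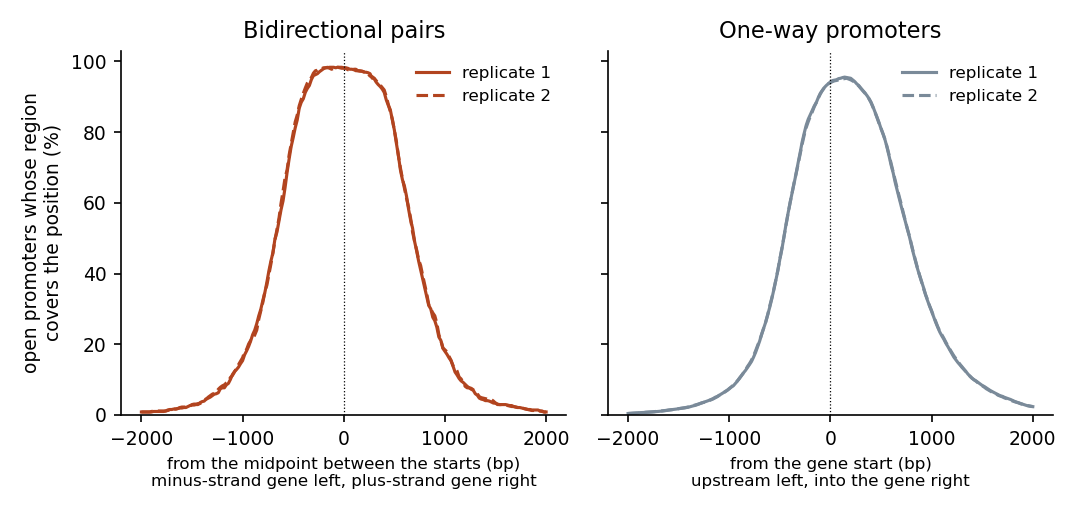
Percent of open promoters (y axis) whose region covers each position (x axis, bp), from the midpoint between the starts at bidirectional pairs (left panel) and from the gene start at one-way promoters (right panel), with 1 line per replicate. At 500 bp to either side the pairs stand at 78.4% and 80.6% in replicate 1, and one-way promoters at 44.1% upstream and 80.9% inside the gene. The sides of pairs follow chromosome strand, so an even curve does not show that single regions are symmetric.

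Summits were the highest points of the regions as the peak caller gave them. The sides of a pair are named by chromosome strand, so a balance between them does not show whether summits favour one gene. The median offset from the midpoint was −3 bp in replicate 1 and −0.5 bp in replicate 2, where negative values point to the minus-strand gene. The 2 sides cancel in this offset, so it does not show how near the middle summits lay. Their median distance from the midpoint on either side was 66 and 70.5 bp, at a median gap of 128 bp over open pairs. Within 100 bp of the midpoint lay 65.6% and 64.4% of summits. At one-way promoters 51.6% and 50.2% lay within 100 bp of the start. The summit lay between the starts in 47.7% and 45.0% of pairs, inside the minus-strand gene in 28.3% and 28.0% and inside the plus-strand gene in 24.0% and 26.9%. The minus-strand gene held the larger share of the summits inside genes in each replicate, by a margin that was narrower in replicate 2. No preference is read from this, as strand is only a label here. The median distance to the nearest start was 51 and 52 bp at pairs, against 96 and 100 bp at one-way promoters. A pair has a further start for the summit to lie near, so these distances do not share the same footing.

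At one-way promoters the summit lay upstream of the start in 43.3% and 42.7% of cases, with a median 20 and 22 bp inside the gene. Where a noncoding start diverged upstream the share was 58.5% and 58.3%. The share of summits between the starts changed with the gap. Summits between the starts made up 24.5% and 21.2% of pairs with gaps up to 100 bp, 57.7% and 53.6% above that and up to 200 bp, 72.0% and 69.9% up to 300 bp and 82.8% in each replicate up to 500 bp. At gaps over 500 bp the share was 56.3% and 57.8%. A wider interval takes in more summits at the same scatter, so this share alone does not show that the summit moved. The median distance from the midpoint hardly differed up to 300 bp. It was 57.5 and 63.5 bp at gaps up to 100 bp, 51.75 and 64.5 bp up to 200 bp, and 63 and 60.5 bp up to 300 bp.

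The pairs with the longest gaps stood apart in several measures. In the 64 open pairs with gaps over 500 bp the median distance of the summit from the midpoint was 334 and 328 bp, against 104.5 and 96.5 bp at over 300 and up to 500 bp, so that summits lay near one start rather than in the middle. Their median signal was 10.8 and 10.3, against 13.4 and 13.3 in that class and 13.0 and 12.7 at gaps up to 100 bp. Their CpG ratio was 0.552, against 0.834 and 0.863 in those same classes. That ratio was taken in 250 bp to either side of the midpoint. At gaps over 500 bp the starts lie at or beyond the edges of this window, while in the other classes they lie inside it. The ratios therefore do not describe like stretches of the promoters. The part of CpG content in the lower signal was not tested.

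**Figure D4:**
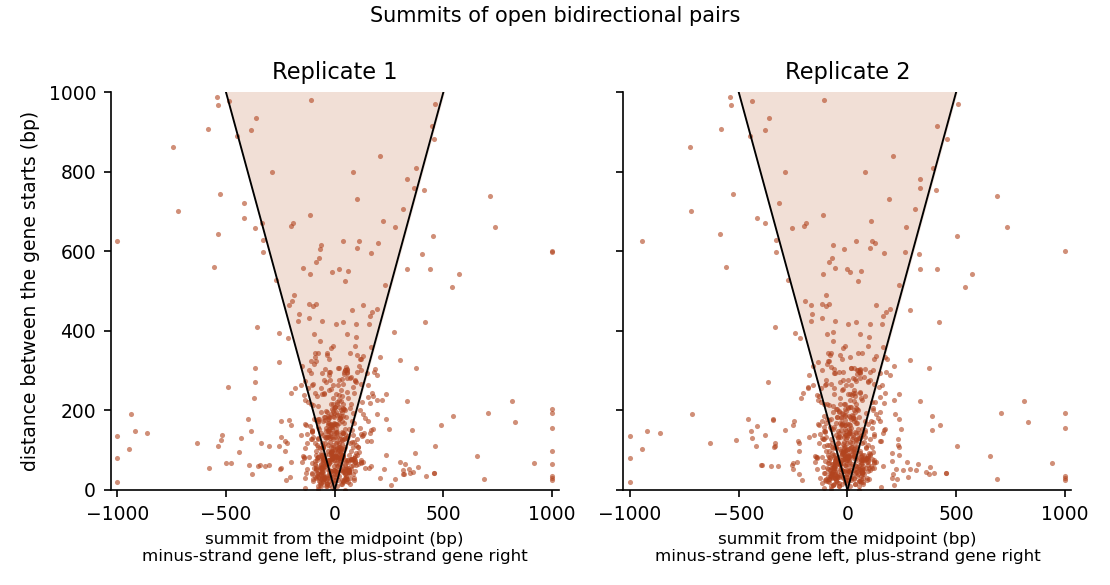
Place of the summit relative to the midpoint between the gene starts (x axis, bp) against the distance between the starts (y axis, bp) for the 717 open pairs, in each replicate. The shaded wedge is the interval between the starts and summits more than 1000 bp away are drawn at the edge. Summits fill the wedge at gaps of over 300 and up to 500 bp, where 82.8% lie inside it, and spread to its edges above that.

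The sequence around the summits was searched for 12 motifs on both strands. General promoter motifs were ETS with the letters CCGGAAG, NRF1 with the letters GCGCATGCG, YY1 with the letters AAGATGGCG, SP/KLF with the letters GGGCGG, NFY with the letters CCAAT, CRE with the letters TGACGTCA, ZNF143 with the letters ACTACAANT, the E-box with the letters CACGTG and TATA with the letters TATAAA. Motifs of T cell regulators were RUNX with the letters TGTGGT, AP-1 with the letters TGANTCA and T-box with the letters AGGTGTGA. Matches of different motifs may overlap. A match describes letters and does not show that a factor was bound. In windows of 100 bp to either side of the summits, 8 of the 12 motifs in replicate 1 and 9 in replicate 2 had a higher share at pairs than at one-way promoters.

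The widest differences were those of ETS and NFY. The ETS motif, bound by factors such as GABPA, matched in 23.2% of pairs in each replicate, against 13.4% of one-way promoters and 3.58% of all shared regions in replicate 1. The CCAAT box, bound by the trimer NFY, matched in 40.9% and 40.2% of pairs, against 29.1% and 28.6% of one-way promoters, and in 21.2% of all shared regions in replicate 1. Both differences were present in the highest CpG quartile, with ETS in 25.2% of pairs against 16.0% of one-way promoters and CCAAT in 40.9% against 29.1% in replicate 1. The SP/KLF box matched in 62.3% of pairs against 57.9% of one-way promoters, but in the highest CpG quartile it was lower at pairs, with 63.7% against 68.1%.

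Rarer promoter motifs were also higher at pairs, but on few matches. Of the 717 pairs, 29 and 26 matched NRF1 and 27 in each replicate matched ZNF143. YY1 matched in 24 and 26 pairs and CRE in 23 in each replicate, so small differences may be counting error. NRF1, a regulator of nuclear genes for mitochondria, matched in 4.04% and 3.63% of pairs against 2.23% and 2.14% of one-way promoters, and ZNF143 in 3.77% of pairs in each replicate against 1.89% and 1.88%. YY1 matched in 3.35% and 3.63% of pairs against 2.44% and 2.50%, and CRE in 3.21% against 2.43% and 2.40%. In the highest CpG quartile ZNF143 matched in 2.45% of pairs (10 pairs) in each replicate against 1.67% and 1.65%. NRF1, YY1 and CRE were higher at pairs in that quartile too. The E-box matched in 7.39% and 7.81% of pairs against 6.97% and 6.92%, and TATA changed side, with 2.37% against 2.45% in replicate 1 and 2.51% against 2.40% in replicate 2. In windows of 50 bp to either side the E-box was lower at pairs, with 3.21% and 3.35% against 3.55% and 3.598%, so no direction is read from it. TATA was lower at pairs in those windows in both replicates, with 0.418% and 0.697% (3 and 5 pairs) against 1.398% and 1.38%. With 150 bp to either side TATA was lower at pairs too, with 3.21% and 3.49% against 3.89% and 3.88%. In the highest CpG quartile, with 100 bp to either side, TATA was higher at pairs, with 2.21% and 2.696% against 2.12% and 1.91%.

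RUNX and AP-1, motifs of T cell regulators, were less frequent at pairs over all promoters. RUNX matched in 6.00% and 5.86% of pairs, against 8.71% and 8.68% of one-way promoters and 22.8% of all shared regions in replicate 1. In the highest CpG quartile RUNX stood at 5.64% of pairs against 5.47% of one-way promoters in replicate 1 and at 5.39% against 5.70% in replicate 2. AP-1 matched in 2.51% and 2.23% of pairs, against 4.49% and 4.67% of one-way promoters and 26.0% of all shared regions in replicate 1, and was lower at pairs in the highest CpG quartile too, with 1.23% against 1.98%. The T-box motif, that of the T-helper 1 regulator T-bet, was rare in both classes, with 0.279% and 0.139% of pairs (2 and 1 pairs), against 0.547% and 0.518% of one-way promoters and 1.62% of all shared regions in replicate 1. Its order turned in replicate 1 with windows of 150 bp to either side, with 0.837% against 0.802%, so no direction is read from it. Pairs with a CCAAT match had a median signal of 13.5 in each replicate, against 12.4 and 12.0 in pairs without one. For ETS the medians were 13.1 and 13.2 with a match and 12.8 and 12.3 without. Other motifs had lower medians with a match. For the E-box they were 11.7 and 11.1 with a match and 13.0 and 12.7 without. TATA stood at 10.6 and 10.5 (17 and 18 pairs) and AP-1 at 10.04 and 10.6 (18 and 16 pairs). RUNX stood at 12.1 and 11.7, NRF1 at 12.6 and 11.96 and YY1 at 12.3 and 11.5. Without a match the medians of these 5 motifs were 12.9 and 12.6 each. SP/KLF, CRE and ZNF143 had higher medians with a match in both replicates, and T-box changed side. Apart from SP/KLF, these motifs matched few pairs, so small differences may be counting error.

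**Figure D5:**
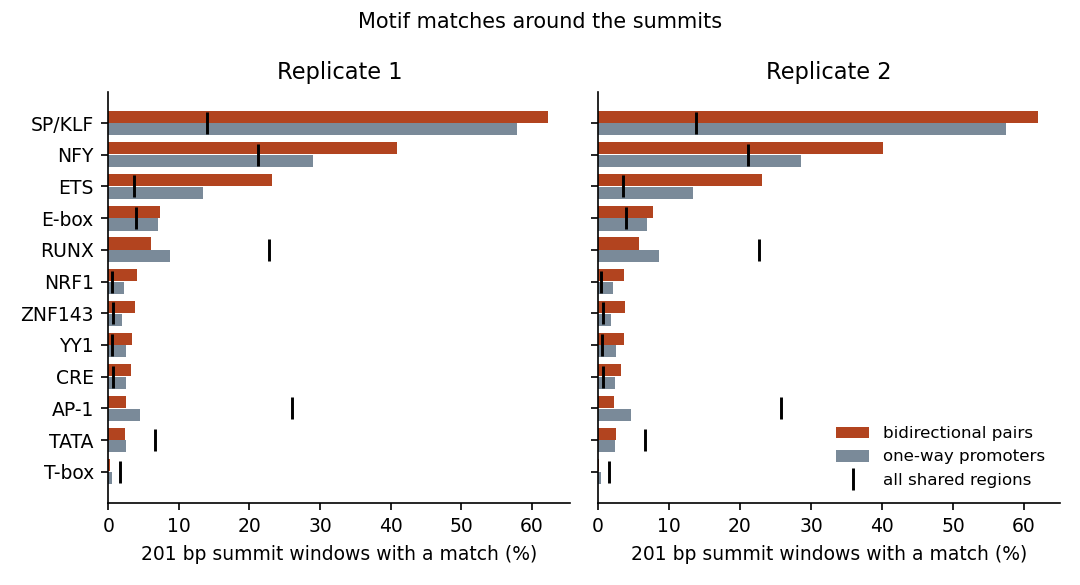
Percent of summit windows, 100 bp to either side, with a match to each motif (x axis) at open bidirectional pairs and open one-way promoters (bars), and at all shared regions (black ticks), in each replicate. ETS stands at 23.2% of pairs and 13.4% of one-way promoters, and AP-1 at 2.51% and 4.49% in replicate 1, far under the tick at 26.0%.

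Which genes lay in pairs differed by function. Against 6.78% of all coding genes, 23 of 85 genes of DNA repair and replication (27.1%), 13 of 46 of respiratory complex I (28.3%), 18 of 78 of the mitochondrial ribosome (23.1%) and 27 of 67 replication-dependent histones (40.3%) were in a pair. Translocases of the mitochondrial membranes had 5 of 26, the proteasome 8 of 50, aminoacyl-tRNA synthetases 5 of 34 and the cytosolic ribosome 10 of 98, a list that by name start also took the kinase gene Rps6kb1. None of the 30 genes of the T-helper 1 programme, 113 keratins or 1135 olfactory receptors was in a pair. The T-helper 1 genes all had one-way promoters, of which 28 of 30 were open (93.3%), against 53.3% of all one-way promoters and 92.6% of those of the DNA repair list. Collagens had 3 of 45, counting Col4a3bp, a lipid transfer gene that the name start took in. The complex I list, also taken by name start, held assembly factor genes beside subunit genes. Of the assembly factor genes, Ndufaf2, Ndufaf5, Ndufaf7 and Ndufaf8 were in a pair.

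All 23 DNA repair and replication genes in pairs were open, close to the 95.1% over all pairs, with median signals of 14.4 and 13.5 over their 23 pairs, against 12.9 and 12.6 over all open pairs. The origin recognition subunit Orc1 shared a promoter with Prpf38a at 16.2 and 17.1, with the summit 21 bp outside the interval in each replicate. The 2 highest values of the list came from inside a gene. At Rad51c/Tex14, with a gene of homologous recombination, signals of 16.9 and 18.7 belonged to summits 479 and 364 bp inside Rad51c, in a region that did not reach the Tex14 start. At Pinlyp/Xrcc1, with a scaffold of single-strand break repair, 17.7 and 17.4 belonged to a summit 745 bp inside Xrcc1 in each replicate, in a region over neither start. The lowest of the list was the polymerase gene Pole with Pxmp2, at 9.998 in replicate 1 and 9.33 in replicate 2. Only Mcm4/Prkdc, a helicase subunit beside a kinase of double-strand break repair, held list members on both sides. The others paired a repair gene with a gene outside the list, such as Xpc with Lsm3 of the RNA-decay and splicing machinery at 15.1 and 14.0, or Chek2 with Hscb of iron-sulfur cluster assembly at 15.3 and 14.5.

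Genes of the complex I list in pairs, assembly factors included, had median signals of 14.96 and 15.2 over 13 pairs. They ranged from 10.04 to 18.5 in replicate 1, with the top value at Cebpz/Ndufaf7, which holds an assembly factor gene. Mitochondrial ribosome genes ranged more widely, from 4.75 to 18.6 in replicate 1, with medians of 12.7 and 11.7. The lowest of them was Mrpl49/Fau at 4.75 and 5.08, and Mrpl32/Psma2, which joins a mitochondrial ribosome gene to a proteasome gene, was at 18.6 and 18.04. Cytosolic ribosome genes had medians of 10.04 and 10.6 over 9 open pairs. Histone genes stood lowest, with 8.01 and 7.75 over 11 open pairs and none above 10.8. Counting those without a region, 13 pairs were histone with histone, mostly an H2A gene beside an H2B gene.

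Of 11 pairs that textbooks give, 5 met the rule, and each was open. Mcm4/Prkdc, with starts 466 bp apart, had signals of 15.1 and 14.6, and Atm/Npat, which joins a DNA damage kinase to a regulator of histone genes across 307 bp, had 14.1 and 13.5. The summit of Atm/Npat lay 16.5 and 17.5 bp from the midpoint. Brca1/Nbr1, whose interval is printed above, had signals of 12.6 and 12.2, but its summit lay 609 bp inside Nbr1, an autophagy receptor gene, in both replicates. Psmb1/Tbp joins a proteasome subunit to the TATA-binding protein across 137 bp and had 8.10 and 7.21 in a joined region of 898 bp. Gart/Son, with starts 554 bp apart, had 8.94 and 8.77 in one of 2461 bp.

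The others failed the rule because the annotated gene bodies overlap at their starts. Hspd1/Hspe1, the mitochondrial chaperonin pair, overlaps by 112 bp, Psmb9/Tap1 of antigen processing by 212 bp, Ppat/Paics of purine synthesis by 272 bp, Surf1/Surf2 by 164 bp and Col4a1/Col4a2 by 22 bp. Of these, Col4a1/Col4a2 had no shared region, and the rest had signals from 7.02 at Surf1/Surf2 to 10.5 at Psmb9/Tap1 in replicate 1.

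The strongest pairs named here had narrow joined regions, from 817 to 1218 bp against a median of 1467 bp over open pairs. Zcchc17/Snrnp40, of which Snrnp40 encodes a spliceosome subunit, had signals of 20.3 and 19.97 in a joined region of 994 bp, with the summit 20.5 and 21.5 bp from the midpoint and so inside the interval printed above. Hspa1a/Hspa1l, a pair of HSP70 chaperone genes, had 19.7 and 20.9 in 817 bp, and 2700097O09Rik/Srp54a, with a subunit of the signal recognition particle, had 21.6 and 19.2. 1700029J07Rik/Ufsp2 and Mfsd8/Abhd18 had between 18.8 and 20.2 across both replicates.

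At the low end, Nr2e1/Ostm1, which joins a nuclear receptor of neural stem cells to a lysosomal protein of bone-resorbing cells, had 2.23 and 2.72. Its summit lay 841 bp inside Nr2e1 in replicate 1, in a region over neither start. Lrrc74b/P2rx6 had 2.63 and 2.54, and Kirrel2/Nphs1, a pair of genes of the kidney filter, had 3.07 and 3.30. Nudt22/Trpt1, Tango2/Arvcf and Adprm/Sco1 stood between 3.56 and 4.46 in both replicates. The narrowest joined regions were those of Lrrc74b/P2rx6 at 583 bp, Nisch/Sema3g at 620 bp, Polr3a/Rps24 at 650 bp and Nudt22/Trpt1 at 687 bp.

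The widest regions were among the weaker ones. Tshz1/Zadh2 had 7.33 and 7.13 in a joined region of 3745 bp, and Nek8/Tlcd1, Cd3eap/Ppp1r13l and Rnf166/Ctu2 had regions of 3150, 3132 and 3063 bp with signals from 6.26 to 6.54. In 26 pairs in replicate 1 and 21 in replicate 2 the summit lay more than 500 bp outside the interval. The farthest were Rnf166/Ctu2, 1997 bp inside Rnf166 in replicate 1, Nek8/Tlcd1, 1701 bp inside Tlcd1, Lig4/Abhd13, 1243 bp inside the ligase gene Lig4, and Plcd3/Acbd4, 1219 bp inside Acbd4. For such pairs the deposited signal describes a point away from the shared promoter. The summit lay within the interval or 200 bp of it in 88.6% and 90.0% of open pairs. It lay within 200 bp of the start in 68.9% and 68.0% of one-way promoters. The window of a pair is longer by its gap and holds both starts, so these shares are not on the same footing.

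The gap itself ranged from 1 to 987 bp with a median of 129.5 bp (quartiles 67 and 240 bp). Bag4/Lsm1 and Slc7a6os/Prmt7 start 1 bp apart and had signals of 13.8 and 12.8 and of 11.4 and 10.8. Dhrs1/Nop9, at 3 bp, had 9.45 and 9.50, and Bag5/Apopt1, at 4 bp, had 17.0 and 16.7. At the long end, Btf3l4/Txndc12 at 987 bp, Asphd1/Sez6l2 at 981 bp and Zfyve26/Rad51b at 978 bp had signals from 10.2 to 12.9 over both replicates. Just inside the limit of 1 kb, 9 of 11 pairs with gaps of over 900 and up to 1000 bp were open, with median signals of 11.1 and 11.4. Just outside it, 10 of 12 with gaps of over 1000 and up to 1100 bp were open, with medians of 7.96 and 8.10. The 4 nearest outside were Serpina7/4930513O06Rik, with no region, and Gpr108/Trip10, Sgsm2/Tsr1 and Dirc2/Hspbap1, with signals from 6.45 to 8.92.

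No shared region touched 37 pairs, and none of these had a region in a single replicate either. Their median CpG ratio was 0.310, against 0.842 at open pairs, and the nearest shared region lay a median of 5290 bp away. Genes known for expression in testis were among them, such as Smc1b, a cohesin subunit of meiosis, and the kinase genes Tssk2 and Tssk3, named after their values were seen. Col4a4/Col4a3, basement membrane collagens, Best1/Rab3il1, with a channel of the retinal pigment epithelium, Il11/Tmem190, 4930430F08Rik/1700017N19Rik, Dgcr2/Tssk2 and Rnf151/Rps2 were the 6 with the shortest gaps. Of the 37, 13 had a gene whose other annotated coding start carried a shared region. Among the 6 with the shortest gaps, such genes were Rab3il1, 4930430F08Rik, Dgcr2 and the ribosomal protein gene Rps2. Their lack of a region belongs to the outermost annotated start and not to the gene.

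From their gene names, 4 of the 37 were compared for copied sequence. The window around Hist1h2bq/Hist1h2ao was identical to that around Hist1h2ap/Hist1h2br over all 487 aligned bases, and that around Gm9112/Dmrtc1b matched that around Dmrtc1a/1700011M02Rik at 487 of 495 bases. Reads from the identical histone windows cannot be told apart, and the part of read placement in the missing regions was not tested. Around the middle of the interval, the CCAAT box matched in 16 of 37 pairs with no region (43.2%), against 38.4% of open pairs, while ETS matched in 1 of 37 (2.70%) against 23.3% and SP/KLF in 9 of 37 (24.3%) against 59.3%.

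Pairs were measured alike in both replicates. The median fold between the replicates' signals was 1.04 at pairs, against 1.05 at one-way promoters, and no pair exceeded 1.5-fold, against 52 one-way promoters (0.508%). The largest was 1.38 at Ppp1r3d/Fam217b, with 8.25 in replicate 1 and 5.99 in replicate 2, followed by Zfyve28/Cfap99 at 1.34, Kctd19/Lrrc36 at 1.23 and C2/Ehmt2 at 1.23. The summits of the replicates lay a median of 2 bp apart at pairs, against 7 bp at one-way promoters. In 88.7% of pairs the summits of both replicates lay between the starts or both lay outside the interval. C2/Ehmt2 was an exception, with a summit 1387 bp inside Ehmt2, a histone methyltransferase gene, in replicate 1 and one 46 bp from the midpoint on the side of C2 in replicate 2.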

How the data were processed

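ATAC-seq was measured in 2 biological replicates of T-helper 1 cells. The authors deposited 1 list of open regions per replicate in narrowPeak form on mm10, per the labels, each from its own alignments; the sources used here name neither aligner nor caller. Deposited columns were a score per region, the signal as a fold ratio over background, −log10 p and −log10 q, and the summit offset in other units (bp). Signal and −log10 p gave whole fragment counts (within 0.05) for 99.8% of 7274 values under 200, as a Poisson model of (pileup + 1) over (background + 1) does; this pileup was used as an alternative. The names of regions carry the words ASTARR and insert, whose meaning is not stated, so the libraries may not be plain ATAC-seq. The number of reads is unknown.

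Overlapping regions of the replicates were joined, keeping the strongest region of each replicate, and the strongest joined region per window was used. Starts were the outermost gene ends in GENCODE M21, sequence and base composition came from GRCm38.p6. Members, lists and motifs were chosen with earlier results of these data known. Named pairs were the textbook pairs, the extremes of signal, width, gap, replicate fold and summit place, the shortest gaps without a region, members of the DNA repair list and pairs at the 1 kb limit; others are said to have been named after their values were seen or are examples from a list. Some pairs that meet this naming rule are not reported here. No test was run, since there is 1 group. Scripts used python 3.11.15, pandas 2.3.3, numpy 2.4.6, scipy 1.17.1 and pysam 0.24.0, and were tested on synthetic data with known answers.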

Additional observations from a re-analysis of the deposited data

How the results depend on the processing

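The pairs kept the higher open share, signal and width and the shorter distance from summit to start under every alternative run, and the number of motifs with a higher share at pairs, 8 of 12, was between 7 and 9. The difference in open share, 41.7 percentage points, was 44.3 against one-way promoters with no opposite start of any biotype, 39.3 with starts of basic coding transcripts (999 pairs) and 5.20 in the highest CpG quartile. The ratio of median signals, bidirectional over one-way and averaged over replicates, was 1.186. It was 1.174 with a −log10 q of at least 5, 1.177 with a 50% reciprocal overlap, 1.194 with no opposite start, 1.206 with gaps of at most 500 bp, 1.169 with transcript starts and 1.112 in the highest CpG quartile, 1.711 for −log10 q and 1.586 for the implied pileup. The ratio of widths, 1.10, was 1.039 in the highest CpG quartile. The ratio of summit distances to the nearest start, 0.526, was 0.537 with the stricter q and with the reciprocal overlap, 0.495 with the shorter gaps, 0.604 with transcript starts, 0.597 in the highest CpG quartile and 0.478 for the middle of the region. With the list of one replicate alone the open share difference was 40.9 to 41.8, the signal ratio 1.185 to 1.196, the width ratio 1.096 to 1.112 and the distance ratio 0.531 to 0.543. The replicate spread was small for the signal and distance ratios, so small shifts in them exceeded it too. The class differences in open share, signal and width fell most in the highest CpG quartile. No paired analysis was possible because there is 1 group. Both replicates carry one donor identifier, depth is unknown, a summit is one point per region however many starts lie under it, and gene-level starts leave out pairs whose bodies overlap.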
